A study of Homo sapiens with 12 samples.

Results

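A549 cells, an established epithelial line from a human lung adenocarcinoma, were profiled by RNA sequencing after one short interfering RNA against GOLM1, named siGOLM1-2, and compared with the same cells given a non-targeting control siRNA. The comparison takes 8 of the 12 libraries of the study: 4 biological replicates with siGOLM1-2 and 4 with the control siRNA. The other 4 libraries received a second siRNA against GOLM1, siGOLM1-1, and served to ask which changes were particular to siGOLM1-2. In all 3 groups the siRNA was given at 50 nM with a lipid reagent while the cells were being plated, the cells were collected 72 h later, and polyadenylated RNA was sequenced. Cells without any siRNA are not analysed here, so an effect that the 3 transfections share cannot be seen. The knockdown is transient, it was made in 1 cell line, and the siRNA sequences are not given in the sources used here.

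GOLM1 encodes a type II membrane protein of the Golgi apparatus (GP73) that proprotein convertases can cut and release from the cell. A small interfering RNA is loaded into an Argonaute protein and directs cleavage of transcripts that pair with its guide strand. A guide strand can also lower other transcripts through short matches of its seed region, and double-stranded RNA can be sensed by cytosolic receptors of the innate immune system. For these reasons different siRNAs against one gene are commonly used side by side.

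Each library held between 41617042 and 71344718 counted reads, and 17532 of 57773 genes passed the count filter and were tested. Epithelial keratins were abundant in every library (KRT8 from 1635 to 4436 CPM, counts per 1000000 reads, scaled to effective library sizes). Of the other epithelial markers, CDH1 read 96.7 to 136.8 CPM, and EPCAM was low at 3.02 to 6.28 CPM. Among the markers of other cells, 5 were near 0 (PTPRC, CD3E and CD68 of immune cells, DCN of fibroblasts and VWF of endothelium, each at or below 0.142 CPM). Other markers of these classes were detected: CD14 at 6.7 to 15.2 CPM, COL3A1 at 0.32 to 7.58, LUM at 0.304 to 2.86, PDGFRA at 0.142 to 2.03 and CDH5 at 0.201 to 1.82 CPM, several of them higher after siGOLM1-2, as given at the end. The 4 control libraries fell into pairs. Their deviations from the control mean over all genes correlated at 0.33 between replicates 1 and 2 and at 0.39 between replicates 3 and 4, and between -0.70 and -0.66 across the pairs. No label names a batch that separates these pairs. Of the 17532 genes, 512 (2.92%) had control pairs whose values lay at least 2-fold apart, and a named gene whose fold change moved by over 1.5 times against one pair is given against it. Deviations from a shared group mean tend to correlate negatively by construction. Among the siGOLM1-2 libraries, replicate 4 stood apart from the other 3, with deviations correlating at -0.65 to -0.40 with theirs, beside -0.14 to 0.07 among those. Values that rest on it are given with and without it. Replicate 1 of siGOLM1-1, the library with 71344718 reads, correlated at -0.49 to -0.39 with its group, beside -0.32 to -0.15 among the others of that group. Mitochondrial genes took 4.87 to 7.27% of the reads after siGOLM1-2, 5.14 to 8.13% in control and 3.22 to 4.89% after siGOLM1-1, and their part in the results was not tested. P-values measure the spread between these replicates.

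GOLM1 itself was measured at 372.0, 378.1, 371.1 and 344.5 CPM in the control libraries, 38.9, 38.7, 38.8 and 37.5 CPM after siGOLM1-1 and 47.2, 44.7, 44.6 and 53.4 CPM after siGOLM1-2. All 8 libraries with a siRNA against GOLM1 lay below all 4 control libraries. The log2 fold change of siGOLM1-2 against control was -2.95 (standard error, SE, 0.07, adjusted p = 1.57e-11), which leaves a level 7.72 times lower. GOLM1 was slightly higher after siGOLM1-2 than after siGOLM1-1, by 0.30 (adjusted p = 0.00181). Here and below, fold changes are on a log2 scale and come from edgeR's quasi-likelihood test on the counts, with p-values adjusted over all genes tested by the Benjamini-Hochberg method and called at 0.05.

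Against control, 7885 genes (45.0% of those tested) were called after siGOLM1-2, 3814 higher (21.8%) and 4071 lower (23.2%). Set against each control pair alone, 18.5% of the same genes were called higher and 18.4% lower with replicates 1 and 2, and 20.3% higher and 19.5% lower with replicates 3 and 4. The direct comparison of siGOLM1-2 with siGOLM1-1 called 9541 genes (54.4%), 4654 higher (26.5%) and 4887 lower (27.9%). A gene was counted as particular to siGOLM1-2 where it was called in the same direction against control and against siGOLM1-1. By that rule 2205 genes (12.6% of those tested) were higher and 2386 (13.6%) were lower than both other groups. Both comparisons share the siGOLM1-2 libraries, so they are not independent of each other. Of the 2205 higher genes, siGOLM1-1 moved 299 in the same direction against control, 595 in the opposite direction, and 1311 were not called. Of the 2386 lower genes, the same 3 counts were 308, 651 and 1427. The change reached 1 on the log2 scale in both comparisons for 622 higher and 339 lower genes. The siGOLM1-2 and control libraries did not overlap in 8046 genes (45.9% of those tested). The siGOLM1-2 libraries overlapped with neither group in 1936 of the 2205 higher and 1986 of the 2386 lower genes.

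Scaling by library totals alone, in place of the trimmed mean of M-values, placed 59.2% of the called genes on the higher side against control, in place of 48.4%. It moved the median of all genes from -0.01 to 0.07 against control and from -0.01 to 0.12 against siGOLM1-1. Small differences and list medians near 0 are relative to that choice, those of the direct comparison included.

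The genes that stood highest after siGOLM1-2 were ranked among genes whose siGOLM1-2 libraries did not overlap with either other group. Lack of overlap was thus set by the choice, here and for the ranked lower genes below. The leading higher genes were of mixed kinds. They included genes of secreted mucosal and defence proteins, a chemokine, an adhesion molecule, a keratin, a carboxypeptidase and proteins that bind microtubules or tubulin. The glycoprotein gene DMBT1, whose product binds bacteria and mucins, was measured at 0.46, 0.553, 0.148 and 0.221 CPM in the control libraries, 0, 0.132, 0.122 and 0 CPM after siGOLM1-1 and 28.8, 27.7, 33.1 and 25 CPM after siGOLM1-2. The siGOLM1-2 libraries lay far above all the others, which held 64 reads in all in the control group and 13 in the siGOLM1-1 group, against 6010 after siGOLM1-2. The log2 fold change against control was 6.38 (SE 0.37, adjusted p = 7.25e-08), with 5.82 against control replicates 1 and 2 and 7.27 against replicates 3 and 4. TFF1, a small secreted trefoil peptide that accompanies mucins, read 0.801, 1.03, 0.169 and 0.141 CPM in the control libraries, 1.05, 1.34, 1.38 and 0.889 CPM after siGOLM1-1 and 21.5, 18, 19.9 and 15.6 CPM after siGOLM1-2. Its siGOLM1-2 libraries did not overlap with either group, and the fold change was 5.15 (SE 0.41) against control and 4.01 against siGOLM1-1. Against the control pairs it was 4.36 and 6.92, where replicates 3 and 4 held 8 and 7 reads of it.

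C4BPB, the beta chain of the complement inhibitor C4b-binding protein, read 0.66, 0.481, 1.12 and 1.05 CPM in the control libraries, 0.256, 0.188, 0.203 and 0.127 CPM after siGOLM1-1 and 15.7, 18, 15.5 and 40.1 CPM after siGOLM1-2. Every siGOLM1-2 library was above every other, and replicate 4 was the highest. The fold change was 4.74 (SE 0.36) against control and 6.80 against siGOLM1-1, and without replicate 4 it was 4.30 against control. CDH3, the adhesion molecule P-cadherin, stood at 0.54, 0.625, 0.36 and 0.503 CPM in the control libraries, 0.768, 0.452, 0.628 and 0.445 CPM after siGOLM1-1 and 8.88, 9.12, 8.81 and 12.5 CPM after siGOLM1-2. Again the siGOLM1-2 group did not overlap with the others (log2 fold change 4.27, SE 0.22, against control). DCLK1, a microtubule-associated kinase, read 1.8, 1.88, 0.191 and 0.141 CPM in the control libraries, 0.199, 0.226, 0.365 and 0.169 CPM after siGOLM1-1 and 12.4, 12.2, 13.2 and 17.6 CPM after siGOLM1-2. Control replicates 1 and 2 exceeded replicates 3 and 4, so its fold change of 3.80 became 2.91 against the first pair and 6.38 against the second.

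Further genes of the 15 that ranked highest were S100A9, a calcium-binding protein of inflamed epithelium and myeloid cells, at 3.47 (4.08 against control replicates 3 and 4), the basal keratin gene KRT15 at 4.02, STMN3, a tubulin-binding protein, at 3.12, and the tetraspanin gene TSPAN1 at 2.93. CPA4, a secreted carboxypeptidase, read 8.35, 6.83, 2.12 and 1.87 CPM in the control libraries, 2.76, 3.31, 5.69 and 1.67 CPM after siGOLM1-1 and 26, 28.3, 25 and 89.1 CPM after siGOLM1-2. Control replicates 1 and 2 and siGOLM1-2 replicate 4 were each high within their groups. Its fold change of 3.14 was 2.47 against control replicates 1 and 2, 4.41 against replicates 3 and 4, and 2.47 without siGOLM1-2 replicate 4.

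**Figure D1:**
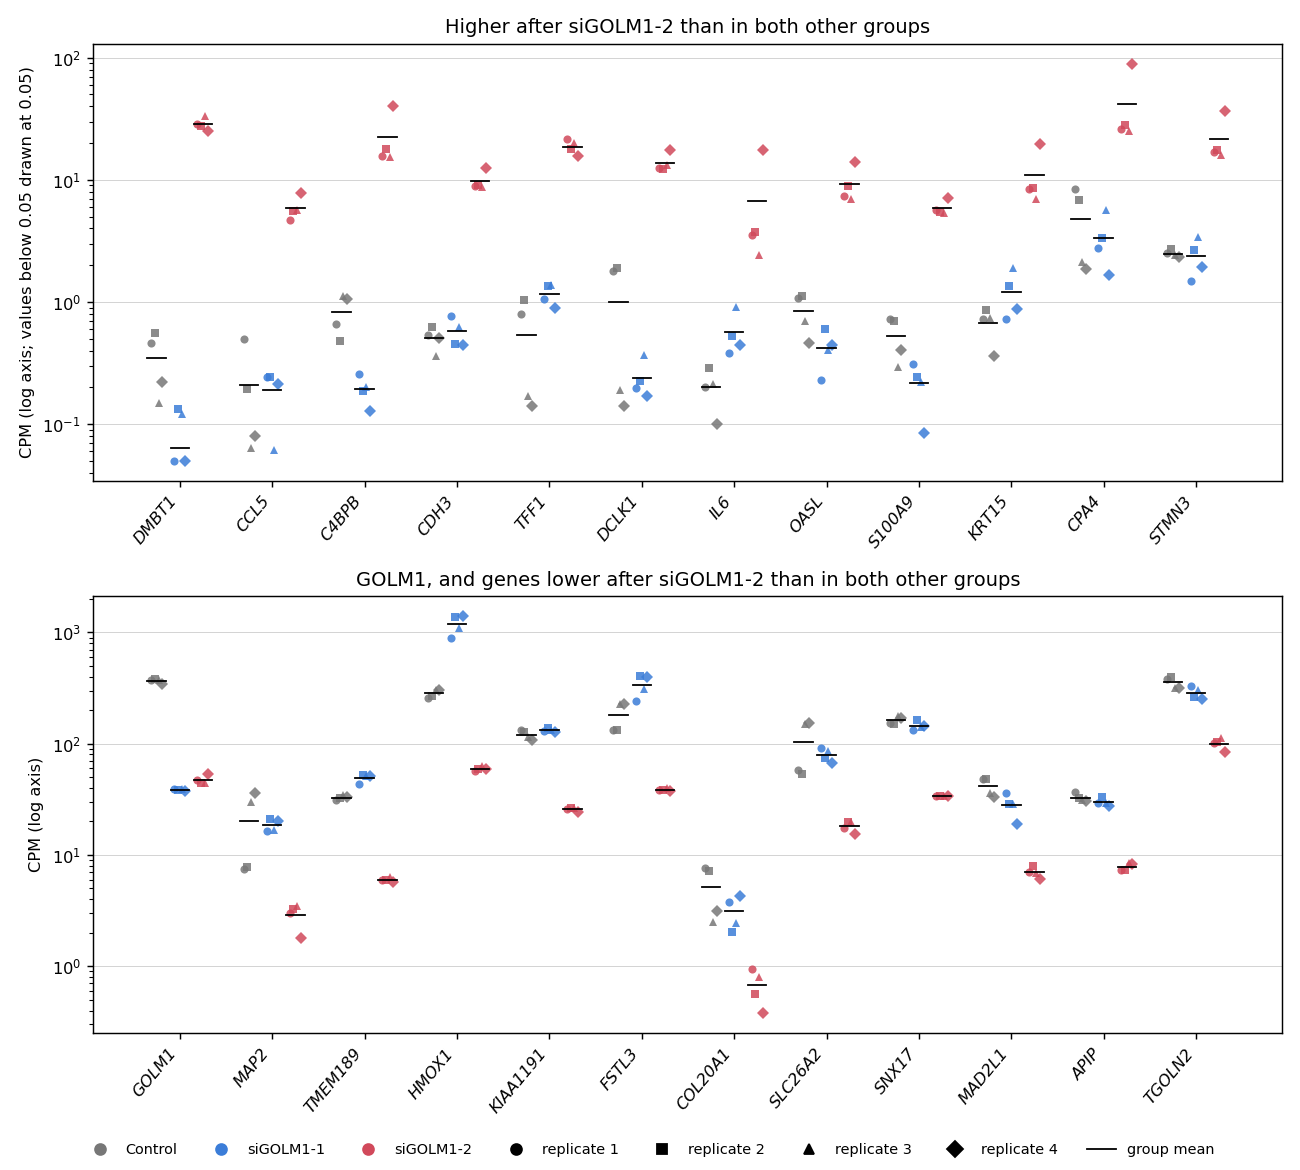
Levels in CPM (log axis) in each of the 12 libraries for 12 genes higher after siGOLM1-2 than in both other groups (top), and for GOLM1 with 11 genes lower than in both (bottom). Colours mark the groups, marker shapes the replicates and bars the group means, and values under 0.05 are drawn at 0.05. The siGOLM1-2 points of DMBT1 lie between 25.0 and 33.1 CPM with all other libraries at or below 0.553 CPM, while GOLM1 is low after both siRNAs.

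Among genes lower than in both other groups, several fell to nearly the same level in all 4 siGOLM1-2 libraries. TMEM189, which encodes the plasmalogen-forming desaturase and whose annotation overlaps a read-through transcript with its neighbour UBE2V1, read 31.1, 32.6, 34.3 and 33.3 CPM in the control libraries, 43, 52.5, 51.7 and 51.2 CPM after siGOLM1-1 and 5.91, 5.98, 6.3 and 5.67 CPM after siGOLM1-2. The siGOLM1-2 values lay within a narrow band well under both other groups, with a fold change of -2.46 (SE 0.08, adjusted p = 3.54e-10) against control and -3.05 against siGOLM1-1. SNX17, a sorting nexin that returns integrins and lipoprotein receptors from endosomes to the surface, read 154.4, 150.5, 178.9 and 170.2 CPM in the control libraries, 133.0, 161.8, 142.6 and 145.3 CPM after siGOLM1-1 and 33.6, 33.7, 34 and 33.8 CPM after siGOLM1-2. Its fold change was -2.27 (SE 0.08) against control and -2.11 against siGOLM1-1, with no overlap. KIAA1191, which encodes a putative monooxygenase, read 133.3, 126.4, 113.8 and 108.6 CPM in the control libraries, 130.5, 139.7, 133.6 and 126.7 CPM after siGOLM1-1 and 26.1, 26.2, 26.2 and 24.3 CPM after siGOLM1-2, a change of -2.23 (SE 0.08). APIP, an enzyme of methionine salvage, read 37, 32.5, 31.1 and 30.6 CPM in the control libraries, 29.4, 33.5, 29.1 and 27.3 CPM after siGOLM1-1 and 7.33, 7.33, 8.48 and 8.31 CPM after siGOLM1-2, a change of -2.06 (SE 0.09). For KIAA1191, SNX17 and APIP, siGOLM1-1 differed from control by only 0.14, -0.17 and -0.14.

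HMOX1, the haem-degrading enzyme, moved in opposite directions with the siRNAs. It was measured at 259.4, 269.0, 306.3 and 304.8 CPM in the control libraries, 891.4, 1388, 1087 and 1399 CPM after siGOLM1-1 and 56.8, 59.5, 63.1 and 59.1 CPM after siGOLM1-2. The siGOLM1-1 libraries were the highest of the study and the siGOLM1-2 libraries the lowest, with -2.26 (SE 0.13) against control and -4.32 against siGOLM1-1. The secreted activin inhibitor gene FSTL3 showed the same order at 132.4, 132.2, 228.5 and 228.6 CPM in the control libraries, 240.5, 403.0, 311.1 and 401.6 CPM after siGOLM1-1 and 38.7, 38.6, 39.9 and 37.7 CPM after siGOLM1-2. Its fold change was -2.22 against all controls, -1.77 against replicates 1 and 2 and -2.55 against replicates 3 and 4. The transferrin gene TF, at -1.96 against control (-1.35 against replicates 1 and 2) and -3.45 against siGOLM1-1, followed the same order at low levels of at most 9.93 CPM.

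MAP2, a microtubule-associated protein best known from neurons, read 7.53, 7.72, 29.9 and 35.9 CPM in the control libraries, 16.4, 21.1, 16.6 and 20.2 CPM after siGOLM1-1 and 2.99, 3.28, 3.5 and 1.81 CPM after siGOLM1-2. Every siGOLM1-2 library was below every other library, but the control pairs differed, so the fold change of -2.81 was -1.39 (adjusted p = 0.000242) against replicates 1 and 2 and -3.49 against replicates 3 and 4. SLC26A2, the sulfate transporter, was likewise -2.52 against all controls and -1.63 and -3.05 against the pairs. COL20A1, a collagen gene of low level, was -2.92 against all controls and -3.47 and -2.04 against the pairs. IL17RD, a membrane inhibitor of fibroblast growth factor signalling, was -1.95 against control, and the cannabinoid receptor gene CNR1 was -2.72. ANXA2P2 is a processed copy of ANXA2, so its reads may belong to the parent gene, and RP11-145M9.4 is a transcript without a gene symbol. Both were in the leading 15, at -2.33 and -2.08.

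To describe processes, 41 lists of genes chosen by textbook function were read against the shares of all genes tested. On the higher side, the shares of members that differed from both other groups lay furthest above the background of 12.6% for interferon effector, mucosal, antigen presentation and cytokine genes. On the lower side the shares lay furthest above 13.6% for the kinetochore and mitotic kinase lists, then for hypoxia and glycolysis, NRF2 targets, cholesterol synthesis and the amino acid response. These lists were chosen with earlier results of these data known and their counts are a description. In bulk RNA, fewer cells of a kind and less RNA per cell cannot be told apart.

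**Figure D2:**
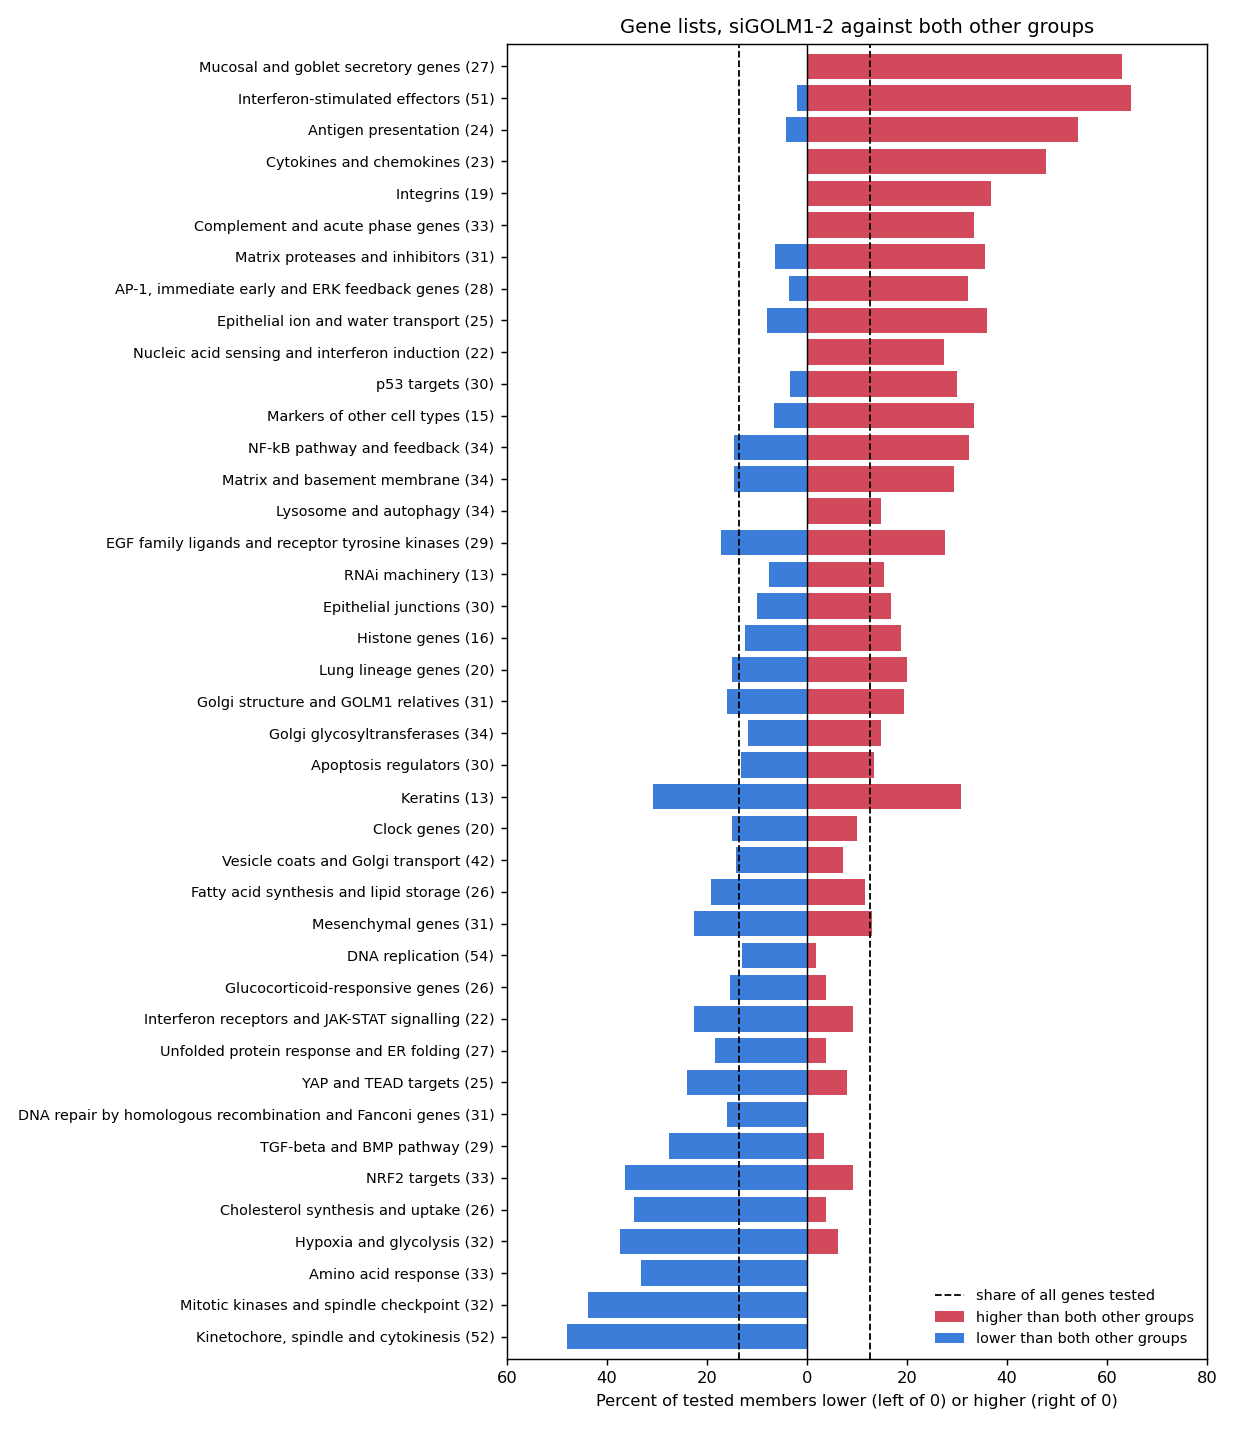
Percent of the tested members of each of 41 gene lists that were higher (red, right of 0) or lower (blue, left of 0) after siGOLM1-2 than in both other groups, with the number of tested members in parentheses and dashed lines at the shares over all genes tested (12.6% and 13.6%). The interferon effector list (64.7% higher) and the mucosal list (63%) lie furthest to the right, and the kinetochore list (48.1% lower) furthest to the left.

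Goblet cells and airway glands protect mucosa with gel-forming mucins, trefoil peptides and bacteria-binding glycoproteins. Of 27 tested genes of this list, 22 were higher against control (81.5%) and 0 were lower, with a median of 1.58. Against both other groups 17 were higher and 0 lower. Leaving out siGOLM1-2 replicate 4, with 28 genes then tested, gave 25 higher against control and 18 higher than both. After siGOLM1-1, 12 of these genes were called higher and 2 lower against control.

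MUC2, the gel-forming mucin of goblet cells, read 0.7, 0.433, 0.127 and 0.342 CPM in the control libraries, 2.2, 1.32, 1.38 and 1.08 CPM after siGOLM1-1 and 13.2, 11.4, 15.5 and 5.37 CPM after siGOLM1-2. The siGOLM1-2 libraries lay above the siGOLM1-1 libraries, and these above the controls, with replicate 4 the lowest of the siGOLM1-2 group. Its fold change was 4.81 (SE 0.43) against control, 2.91 against siGOLM1-1, and 5.59 against control replicates 3 and 4. FCGBP, a large mucus protein that cross-links with mucins, read 13.1, 9.81, 11.9 and 15.2 CPM in the control libraries, 13.4, 15.9, 18 and 13 CPM after siGOLM1-1 and 59.2, 48.7, 78 and 36.9 CPM after siGOLM1-2. The siGOLM1-2 group was the only one above 30 CPM, at 2.15 (SE 0.21) against control and 1.89 against siGOLM1-1. ZG16B, a secreted lectin, was 2.15 against control and 1.06 against siGOLM1-1, at levels of at most 3.1 CPM.

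Interferons signal through surface receptors, Janus kinases and STAT factors to switch on a large set of antiviral genes, and cytosolic RNA sensors can start their production. Promoters of such genes often carry the interferon-stimulated response element, here searched as GAAANNGAA on either strand, with overlap with other patterns allowed, within 250 bases before and 50 bases after the start site in RefSeq (GRCh38.p14, matched by symbol). That pattern was found in 67.3% of the 52 promoters of the 39 interferon effector genes matched (of 51 tested), and in 8.11% of all 35116 promoters of the table. The stretches before the start sites of IFITM1 (chr11:313940-314039, plus strand) and IFITM3 (chr11:320861-320955, minus strand) are shown, and capitals mark the pattern. Both genes differed from both other groups and were chosen only among genes that hold the pattern before the start.
IFITM1: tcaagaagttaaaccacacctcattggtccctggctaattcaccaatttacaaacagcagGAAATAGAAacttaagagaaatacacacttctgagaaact
IFITM3: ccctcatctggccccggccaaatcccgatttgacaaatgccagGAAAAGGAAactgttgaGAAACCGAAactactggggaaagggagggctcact
IFITM3 carries the pattern at 2 places in this stretch and IFITM1 at 1. A match of letters is a description and not evidence of binding.

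Interferon-stimulated effector genes were higher after siGOLM1-2. Of 51 tested, 36 were higher and 2 lower against control (70.6% and 3.92%), with a median of 0.99, and 33 were higher and 1 lower than both other groups. With siGOLM1-1 the same list had 11 higher and 17 lower, with a median of -0.10. The gene lower than both was APOL2. Against control replicates 1 and 2 alone 37 were higher and 0 lower, against replicates 3 and 4 35 and 4, and without siGOLM1-2 replicate 4 36 and 2. For interferon effector genes, the number lower against control was 4 without siGOLM1-1 replicate 1.

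The IFITM proteins block fusion of enveloped viruses with the cell membrane. IFITM3 read 18.9, 22.4, 19.4 and 18.7 CPM in the control libraries, 17.1, 22.5, 21.2 and 26.3 CPM after siGOLM1-1 and 58.8, 61.7, 58.1 and 78.3 CPM after siGOLM1-2. All siGOLM1-2 libraries were above all others, at 1.70 (SE 0.13, adjusted p = 5.1e-07) against control and 1.56 against siGOLM1-1. The neighbouring IFITM2 (1.30) and IFITM1 (3.37) were also higher against control, though IFITM1 stayed at or below 3.64 CPM. The 3 genes are close in sequence, and reads that fit several of them may have been shared out or dropped by the authors' counting. OASL, an oligoadenylate synthetase relative that enhances RNA sensing, read 1.08, 1.11, 0.699 and 0.463 CPM in the control libraries, 0.228, 0.602, 0.405 and 0.445 CPM after siGOLM1-1 and 7.31, 8.97, 7.03 and 13.9 CPM after siGOLM1-2, a change of 3.48 (SE 0.32) against control and 4.49 against siGOLM1-1. The siGOLM1-2 group did not overlap with either group.

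MX1, OAS2 and ISG15 are antiviral genes picked after their values were seen, because they are widely used as readouts of an interferon response. MX1, a dynamin-like GTPase, read 2.12, 3.44, 2.18 and 1.85 CPM in the control libraries, 1.04, 1.6, 1.44 and 1.44 CPM after siGOLM1-1 and 11.3, 19.6, 12.5 and 22.9 CPM after siGOLM1-2. OAS2, which makes the messenger that activates RNase L, read 0.28, 0.481, 0.0635 and 0.0403 CPM in the control libraries, 0.0996, 0.169, 0.101 and 0.106 CPM after siGOLM1-1 and 3.03, 4.93, 3.05 and 5.53 CPM after siGOLM1-2. Both were higher in every siGOLM1-2 library than in any other, with replicates 2 and 4 the highest, and changed by 2.79 and 4.29 against control. OAS2 was 3.45 against control replicates 1 and 2, 6.28 against replicates 3 and 4 and 5.00 without control replicate 2. ISG15, a ubiquitin-like modifier, was 2.24 against control and 1.44 against siGOLM1-1. TNFSF10, the death ligand TRAIL, was 1.61 and the secreted glycoprotein gene LGALS3BP 1.01 against control.

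GBP1 and APOL2 were the effector genes lower against control, and both rest on the control pair. GBP1, an interferon-induced GTPase, was -1.13 against all controls, -0.35 (adjusted p = 0.378) against replicates 1 and 2 and -1.61 against replicates 3 and 4. Without control replicate 3 it was -0.90 (adjusted p = 0.05). APOL2, an intracellular apolipoprotein L, was -0.62, -0.19 (adjusted p = 0.399) and -0.93 in the same order. Its call was also lost with no filter beyond 1 count, without control replicate 3 or 4 or without siGOLM1-2 replicate 1, 2 or 3, with changes from -0.62 to -0.49 and adjusted p-values from 0.0523 to 0.0673.

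**Figure D3:**
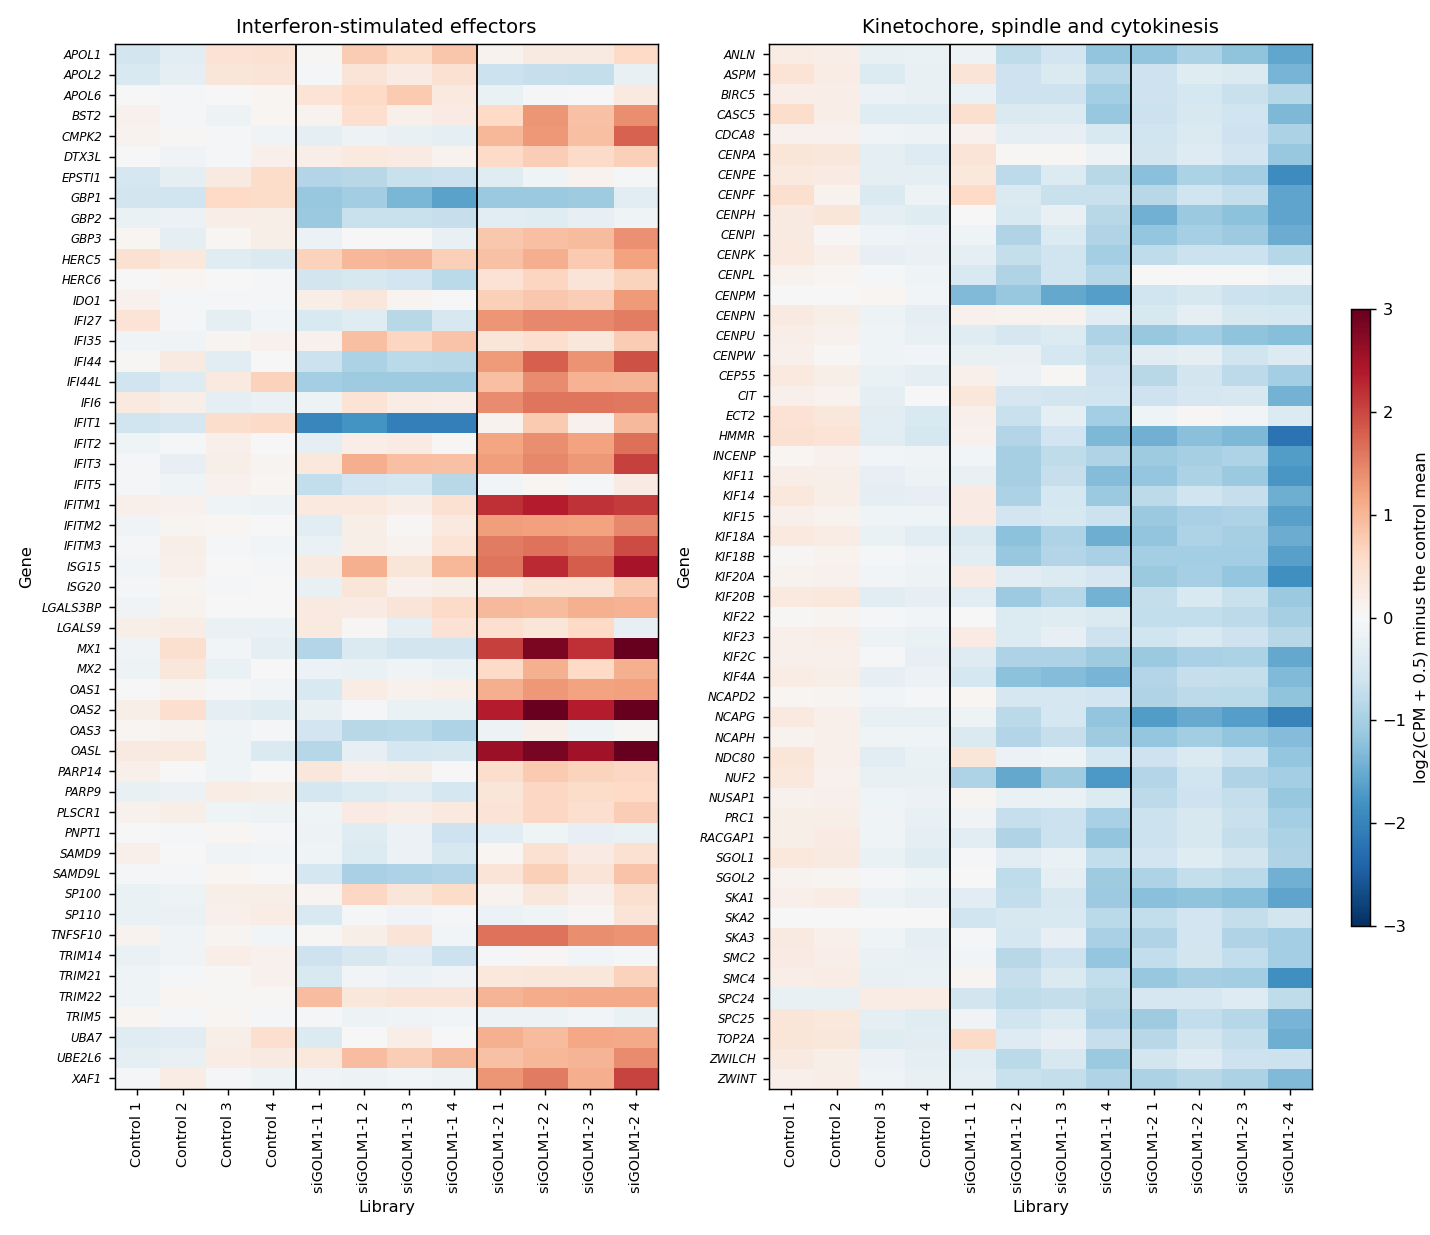
Heat maps of all tested interferon-stimulated effector genes (left, 51 genes) and kinetochore, spindle and cytokinesis genes (right, 52 genes) in the 12 libraries, coloured by log2(CPM + 0.5) minus the mean of the 4 controls. The interferon genes are red mainly in the siGOLM1-2 libraries, where 36 of 51 were called higher against control, and the spindle genes are blue there, where 48 of 52 were called lower.

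Some of the genes that sense nucleic acids and start interferon production rose. Of 22 tested, 10 were higher (45.5%, beside 21.8% of all genes) and 0 lower against control. Higher than both other groups were 6 (27.3%, beside 12.6%): SAMHD1, IFI16, DDX58, DHX58, IKBKE and IFIH1. For sensing genes, the number higher than both was 10 with library totals alone. DDX58 encodes the RNA helicase RIG-I, which recognises short double-stranded RNA with a triphosphate end. It read 22.6, 20.8, 16.7 and 14.8 CPM in the control libraries, 19.9, 16.8, 16.4 and 14.3 CPM after siGOLM1-1 and 32.5, 35.9, 33.3 and 39.3 CPM after siGOLM1-2, a change of 0.91 (SE 0.13) against control and 1.06 against siGOLM1-1. SAMHD1, which depletes deoxynucleotides, changed in opposite directions after the siRNAs, at 37.2, 37.4, 33.3 and 33.1 CPM in the control libraries, 12.3, 11.1, 12.2 and 9.66 CPM after siGOLM1-1 and 63.7, 73.2, 63.4 and 78.7 CPM after siGOLM1-2. The DNA sensor IFI16 was 1.49 against control and 0.70 against siGOLM1-1.

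The receptors and kinases of interferon signalling were mixed. Of 22 genes, 7 were higher and 6 lower against control (31.8% and 27.3%, beside 21.8% and 23.2% of all genes). Of the list, 5 were lower than both other groups (JAK1, PTPN6, IFNAR1 and PTPN2 among them) and 2 higher (STAT3 and IL10RB), or 22.7% and 9.09% beside 13.6% and 12.6%. For these signalling genes, the number higher than both was 4 with DESeq2 and with library totals alone. JAK1, the kinase shared by the interferon receptors, was -0.91 against control and -1.13 against siGOLM1-1. STAT3, the acute phase factor, was 0.51 against control and 0.91 against siGOLM1-1.

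Class I molecules carry peptides, cut by the proteasome and pumped by the TAP transporter, to the cell surface for T cells. Of 24 antigen presentation genes, 19 were higher against control (79.2%) and 2 lower, namely CALR and TAP2, and 13 were higher and 1 (CALR) lower than both other groups. After siGOLM1-1 14 were higher and 2 lower against control, with a median of 0.30 beside 0.60 after siGOLM1-2. The direct comparison had 13 higher and 4 lower (median 0.31). TAP1, a subunit of the transporter, read 53.1, 51, 54.3 and 53.1 CPM in the control libraries, 50.9, 52.1, 49.6 and 48.9 CPM after siGOLM1-1 and 92.7, 93.8, 86.5 and 118.1 CPM after siGOLM1-2. The siGOLM1-2 libraries exceeded all others, at 0.89 (SE 0.09). CTSS, the cathepsin that processes antigens in lysosomes, was 1.79 against control and 0.89 against siGOLM1-1. HLA-B was 1.15 and its regulator NLRC5 0.91 against control, with the caution that reads of HLA genes can fit several of them. TAP2, the other subunit, was -0.42 against control and -0.14 against siGOLM1-1, the latter not called (adjusted p = 0.342). Its call against control was lost against control replicates 3 and 4 alone (-0.35, adjusted p = 0.0779).

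Of 23 cytokine and chemokine genes, 14 were higher and 0 lower against control (60.9% higher), with a median of 0.98, and 11 were higher than both other groups. CXCL5, which attracts neutrophils, read 88, 95.8, 34.6 and 34.6 CPM in the control libraries, 93.9, 67.2, 98.2 and 55.5 CPM after siGOLM1-1 and 340.5, 352.5, 347.7 and 518.0 CPM after siGOLM1-2. Every siGOLM1-2 library was at least 340.5 CPM and every other library below 100 CPM. The change was 2.62 (SE 0.34) against all controls and 3.51 against replicates 3 and 4. CCL5, which recruits T cells and is a known interferon and NF-kB target, read 0.5, 0.192, 0.0635 and 0.0805 CPM in the control libraries, 0.242, 0.245, 0.0608 and 0.212 CPM after siGOLM1-1 and 4.66, 5.54, 5.66 and 7.75 CPM after siGOLM1-2. The 8 libraries without siGOLM1-2 held 83 reads of it in all. Its fold change of 4.79 (SE 0.44) was 4.04 and 6.32 against the control pairs and 5.73 without control replicate 1.

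IL6, the cytokine that drives the acute phase response, depended most on 1 library. It read 0.2, 0.289, 0.212 and 0.101 CPM in the control libraries, 0.384, 0.527, 0.912 and 0.445 CPM after siGOLM1-1 and 3.55, 3.71, 2.43 and 17.4 CPM after siGOLM1-2. Replicate 4 lay far above the other 3 siGOLM1-2 libraries, which in turn lay above all others. The fold change against control was 5.08 (SE 0.69) with replicate 4 and 4.02 (adjusted p = 2.23e-06) without it. IL33, an alarmin released from injured epithelium, showed no such split: it read 0.62, 0.914, 0.635 and 0.362 CPM in the control libraries, 0.754, 0.508, 0.831 and 0.381 CPM after siGOLM1-1 and 4.14, 4.37, 4.5 and 4.45 CPM after siGOLM1-2, a change of 2.79 (SE 0.26). CCL26, an eosinophil attractant, was 3.57 against control (4.47 against replicates 3 and 4) and 1.89 against siGOLM1-1, and EBI3, a subunit of heterodimeric interleukins, was 2.92 (3.85 against replicates 3 and 4) and 2.28. TNFRSF9, the receptor 4-1BB, was 2.99 against control, 3.67 against replicates 3 and 4 and 2.37 without siGOLM1-2 replicate 4.

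NF-kB is a family of transcription factors held in the cytoplasm until the IKK kinases release it. In its list of 34 genes, 17 were higher and 6 lower against control (50% and 17.6%, beside 21.8% and 23.2% of all genes). Against both others 11 were higher and 5 (CHUK, BIRC2, NFKBIZ, MAP3K8 and BCL3) lower. These were 32.4% and 14.7%, beside 12.6% and 13.6% of all genes, so the lower share was near that of all genes. After siGOLM1-1 12 were higher and 1 lower against control, and the direct comparison had 15 higher and 8 lower (median 0.13). For the NF-kB list, the number higher than both was 7 with no filter beyond 1 count. NFKB1, a subunit, was 0.66 against control and 0.23 against siGOLM1-1, and IRAK2, an adaptor kinase of Toll-like receptors, was 1.69 and 0.69. CHUK, which encodes the kinase IKK-alpha, read 50.4, 53.6, 46.9 and 44 CPM in the control libraries, 52.5, 40.7, 51 and 39.1 CPM after siGOLM1-1 and 24.9, 26.2, 27.9 and 23 CPM after siGOLM1-2. This gene and BIRC2, a ubiquitin ligase of the pathway, were lower in all siGOLM1-2 libraries than in any other, at -0.93 and -0.76 against control. Matches to the NF-kB consensus, on either strand, were found in 36.8% of 19 promoters of the 15 cytokine genes matched and in 5.91% of all promoters.

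Complement and acute phase genes were higher or not called: 16 of 33 were higher and 0 lower against control. The higher share was 48.5%, beside 21.8% of all genes. Higher than both others were 11 (33.3%, beside 12.6%). Beside C4BPB, its partner C4BPA read 20.3, 19.8, 16.2 and 15.3 CPM in the control libraries, 11.4, 8.92, 10.3 and 6.33 CPM after siGOLM1-1 and 54.3, 56.1, 60.6 and 41.7 CPM after siGOLM1-2, a change of 1.57 (SE 0.17) against control and 2.52 against siGOLM1-1. CD59 and CD55, membrane proteins that protect cells from complement, were 1.10 and 1.27 against control. CD59 read 345.2, 320.4, 375.6 and 340.9 CPM in the control libraries, 268.6, 277.7, 279.5 and 236.5 CPM after siGOLM1-1 and 685.5, 726.1, 676.2 and 878.1 CPM after siGOLM1-2, with no overlap between siGOLM1-2 and either group. C1S, a protease that activates the classical pathway, was 0.89 against control and -0.35 against siGOLM1-1, so it was higher still after siGOLM1-1.

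Integrins bind the matrix, and epithelial laminin receptors anchor cells to the basement membrane. Of 19 integrin genes, 10 were higher and 2 lower (ITGB8 and ITGB6) against control (52.6% and 10.5%, beside 21.8% and 23.2% of all genes). Higher than both others were 7 (36.8%, beside 12.6%). ITGA3, the alpha chain of a laminin receptor, read 414.0, 395.8, 450.7 and 472.1 CPM in the control libraries, 317.0, 342.5, 420.3 and 355.2 CPM after siGOLM1-1 and 1037, 1015, 984.4 and 1189 CPM after siGOLM1-2. The siGOLM1-2 libraries exceeded the others without overlap, at 1.29 (SE 0.10, adjusted p = 4.71e-07) against control and 1.56 against siGOLM1-1. ITGA6 and ITGB4, which pair in hemidesmosomes, were 0.88 and 0.84, ITGA2, a collagen receptor chain, 1.49, and ITGB2, the leukocyte beta chain, 1.36.

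Among 34 matrix and basement membrane genes, 14 were higher and 5 lower against control (41.2% and 14.7%, beside 21.8% and 23.2% of all genes). From both others 10 and 5 differed (29.4% and 14.7%, beside 12.6% and 13.6%). TNC, tenascin-C of remodelled tissue, read 10.5, 8.18, 12.5 and 13.8 CPM in the control libraries, 2.32, 2.65, 1.92 and 2.39 CPM after siGOLM1-1 and 52, 48, 55.6 and 67.3 CPM after siGOLM1-2. It was highest in the siGOLM1-2 group and lowest in the siGOLM1-1 group, at 2.31 (SE 0.16) and 4.58. LAMA4, a laminin chain, was 2.72 against all controls and 3.49 against replicates 1 and 2. NID1, which links laminin to collagen IV, was 1.49 and COL17A1, the hemidesmosomal collagen, 1.70. The 5 lower genes were COL20A1, THBS1, LTBP2, COL4A2 and FBLN1.

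In the list of matrix proteases and their inhibitors, 18 of 31 were higher and 2 (PLAU and ADAM10) lower against control. These were 58.1% and 6.45%, beside 21.8% and 23.2% of all genes. Higher than both others were 11 (35.5%, beside 12.6%). After siGOLM1-1 14 were higher and 4 lower against control, and the direct comparison had 12 higher and 8 lower (median 0.12). CTSB, a lysosomal and secreted cathepsin, read 659.9, 666.3, 684.6 and 664.4 CPM in the control libraries, 481.5, 817.8, 733.9 and 825.3 CPM after siGOLM1-1 and 1586, 1630, 1529 and 2101 CPM after siGOLM1-2. The siGOLM1-2 libraries were the highest, at 1.36 (SE 0.15). MMP7, the matrilysin of epithelia, was 1.36 against control and only 0.42 against siGOLM1-1, ADAM19 1.40 and 1.28, and the inhibitor TIMP1 1.11 and 0.84.

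Of 29 receptor tyrosine kinases and their ligands, 12 were higher and 7 lower against control (41.4% and 24.1%, beside 21.8% and 23.2% of all genes). For this list, the number lower against control was 2 with controls 1 and 2 only. MET, the hepatocyte growth factor receptor, read 298.4, 276.1, 251.8 and 245.0 CPM in the control libraries, 98.8, 99, 109.4 and 82.7 CPM after siGOLM1-1 and 470.7, 514.9, 475.4 and 541.8 CPM after siGOLM1-2. It rose with siGOLM1-2 and fell with siGOLM1-1, at 0.90 (SE 0.09) and -1.46 against control. TGFA, an EGF receptor ligand, showed the same order, at 1.66 with siGOLM1-2 and -1.26 with siGOLM1-1, and EGFR was 0.77 with siGOLM1-2 and -0.13 with siGOLM1-1. AXL, the receptor of GAS6, read 123.8, 108.5, 100.5 and 97.8 CPM in the control libraries, 83.7, 114.0, 176.1 and 85.6 CPM after siGOLM1-1 and 31.4, 32.9, 33.6 and 43.1 CPM after siGOLM1-2, and was lower in every siGOLM1-2 library than in any other (-1.61, SE 0.21).

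Downstream of these receptors, 18 of 28 AP-1, immediate early and ERK feedback genes were higher and 1 (DUSP1) lower against control. These were 64.3% and 3.57%, beside 21.8% and 23.2% of all genes. Higher than both others were 9 (32.1%, beside 12.6%). After siGOLM1-1 12 were higher and 2 lower, with a median of 0.46 beside 0.45 after siGOLM1-2, and the direct comparison had 9 higher and 9 lower (median -0.13). For the AP-1 list, the number higher than both was 5 without siGOLM1-1 replicate 4. DUSP6, a phosphatase of ERK that its pathway induces, was 1.09 against control and 0.89 against siGOLM1-1. In the TGF-beta and BMP list, 8 of 29 genes were lower than both other groups and 1 (NOG) higher. These were 27.6% and 3.45%, beside 13.6% and 12.6% of all genes. TGFBR1, the signalling receptor, read 91.7, 96.1, 223.7 and 215.3 CPM in the control libraries, 241.2, 278.1, 271.6 and 254.3 CPM after siGOLM1-1 and 45.1, 52.5, 47.7 and 43.6 CPM after siGOLM1-2. All siGOLM1-2 libraries were lowest, but the control pairs differed, so the change of -1.73 was -0.99 and -2.20 against them. ID3, a target gene of BMP signals, was -0.78 against control and -1.24 against siGOLM1-1.

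Ion and water transport genes of epithelia were higher more often than lower, with 12 and 5 of 25 against control and 9 and 2 against both. The shares were 48% and 20% against control, beside 21.8% and 23.2% of all genes. Against both they were 36% and 8%, beside 12.6% and 13.6%. The lower genes were SCNN1A, SCNN1B, ATP1B3, KCNQ1 and SLC4A7, of which KCNQ1 and SLC4A7 were lower than both. For ion transport, the number lower against control was 2 with DESeq2's size factors, with library totals alone, with no filter beyond 1 count, without control replicate 2, with controls 1 and 2 only and with controls 3 and 4 only, 3 with a replicate block, without siGOLM1-2 replicate 2, without siGOLM1-2 replicate 3 and without siGOLM1-2 replicate 4. AQP3, a channel for water and glycerol in basal epithelial membranes, read 10.1, 11.3, 8.47 and 7.93 CPM in the control libraries, 6.4, 6.65, 9.28 and 6.54 CPM after siGOLM1-1 and 63.9, 61.1, 67 and 42.4 CPM after siGOLM1-2. It was several times higher in the siGOLM1-2 group, at 2.63 (SE 0.17) against control and 3.02 against siGOLM1-1. KCNN4, a calcium-gated potassium channel, was 1.47 and the sodium pump subunit gene ATP1B1 0.56.

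Tight junctions seal epithelia and keratins are their intermediate filaments. CLDN4 and CLDN1, which seal tight junctions, were 2.07 and 1.81 against control, and in the junction list 5 of 30 were higher (PARD6B, CLDN4, CLDN1, F11R and CLDN2) and 3 lower (MARVELD2, CTNND1 and JUP) than both others, or 16.7% and 10% beside 12.6% and 13.6% of all genes. For junctions, the number higher than both was 8 with library totals alone and 3 with no filter beyond 1 count. Of 13 keratins, KRT15, KRT16, KRT4 and KRT19 were higher and KRT86, KRT81, KRT7 and KRT80 lower than both other groups (30.8% in each direction). KRT81 read 2486, 2528, 3421 and 3448 CPM in the control libraries, 2409, 2549, 2006 and 2265 CPM after siGOLM1-1 and 1655, 1712, 1656 and 1839 CPM after siGOLM1-2, and was -0.79 against control. KRT81 and KRT86 are hair keratins of near-identical sequence, so their reads may not be separable.

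Mitosis is run by cyclin B with CDK1, by Polo-like and Aurora kinases, and by the spindle checkpoint, and its genes are switched on late in the cell cycle. Many of their promoters carry a cell cycle homology region, searched as TTTGAA on either strand in the same windows, beside CCAAT boxes. TTTGAA was found in 65.4% of 52 promoters of the kinetochore list and 42.9% of 35 of the mitotic kinase list, against 15.2% of all promoters. CCAAT was found in 69.2% and 65.7%, against 34.6%. The stretches before the start sites of PLK1 (chr16:23678800-23678888) and NCAPG (chr4:17810884-17810978), both on the plus strand of GRCh38.p14 in RefSeq, are shown with TTTGAA in capitals. Both genes were lower than in both other groups and were chosen only among genes that hold TTTGAA before the start.
PLK1: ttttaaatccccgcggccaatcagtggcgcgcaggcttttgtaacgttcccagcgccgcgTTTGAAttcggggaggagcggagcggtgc
NCAPG: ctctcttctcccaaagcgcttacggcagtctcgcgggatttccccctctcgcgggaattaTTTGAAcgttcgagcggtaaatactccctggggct
The first base of the element lies 29 bases before the start in PLK1 and 35 in NCAPG.

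Mitotic genes were lower after siGOLM1-2. Of 32 mitotic kinase and checkpoint genes, 27 were lower against control (84.4%) and 1 (CDC25B) higher, with a median of -0.90. Of 52 kinetochore, spindle and cytokinesis genes, 48 were lower (92.3%) and 0 higher, with a median of -0.88. Against control replicates 3 and 4 alone, 32 of the latter were lower, and against replicates 1 and 2 alone 49. With siGOLM1-1 the counts of lower genes were 23 and 28, and 14 and 25 genes were lower with siGOLM1-2 than in both other groups. CDC25B lost its call against control replicates 1 and 2 alone (0.26, adjusted p = 0.102, against 0.40 with all controls). For mitotic kinase genes, the number lower than both was 9 with library totals alone. For kinetochore genes, the number lower than both was 15 with library totals alone and 16 with no filter beyond 1 count. It was 17 without siGOLM1-1 replicate 1 and also 17 without siGOLM1-2 replicate 4.

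MAD2L1, the checkpoint protein that holds cells before anaphase, read 47.8, 48.2, 36.4 and 33 CPM in the control libraries, 36, 29, 28.7 and 19.1 CPM after siGOLM1-1 and 7.08, 7.91, 6.93 and 6.04 CPM after siGOLM1-2. All siGOLM1-2 libraries were below all others, at -2.56 (SE 0.19, adjusted p = 3.77e-07) against control and -2.01 against siGOLM1-1. PBK, a kinase of mitotic cells, read 102.1, 98, 72.1 and 62.2 CPM in the control libraries, 61.5, 43.9, 53 and 31.5 CPM after siGOLM1-1 and 20.3, 22.2, 19.8 and 15.4 CPM after siGOLM1-2, a change of -2.10 (SE 0.21) and -1.29. PLK1, the Polo-like kinase, read 155.5, 166.3, 145.8 and 142.3 CPM in the control libraries, 136.1, 98.3, 110.7 and 97.7 CPM after siGOLM1-1 and 62.1, 68.8, 62.3 and 44.8 CPM after siGOLM1-2, a change of -1.36 (SE 0.13) and -0.90. In each of these genes the siGOLM1-1 group lay between control and siGOLM1-2 on average. AURKB was -0.92 against control and -0.59 against siGOLM1-1.

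AURKA, the Aurora kinase of the centrosome, had the opposite order. It read 168.2, 163.2, 130.9 and 126.6 CPM in the control libraries, 30.4, 24.6, 25.1 and 19.3 CPM after siGOLM1-1 and 60.8, 74, 62.3 and 56.6 CPM after siGOLM1-2. The siGOLM1-1 libraries were the lowest, and siGOLM1-2 lay between them and the controls, -1.21 against control and 1.35 above siGOLM1-1. The condensin genes NCAPG and NCAPH, whose products compact chromosomes, were -1.75 and -1.20 against control. CENPU of the kinetochore and SKA1 of its microtubule contact were -1.22 and -1.39.

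Genes of DNA replication were lower after both siRNAs. Of 54 genes, 45 were lower and 1 (RPA2) higher against control after siGOLM1-2, with a median of -0.63, and 46 were lower after siGOLM1-1, with a median of -0.71. In the direct comparison 20 were higher and 8 lower after siGOLM1-2 than after siGOLM1-1, with a median of 0.15, and 26 were not called. Lower than both other groups were 7 (13%, beside 13.6% of all genes), and RPA2 was higher than both. For replication genes, the number lower than both was 4 with library totals alone and 11 without siGOLM1-1 replicate 4. An E2F element, searched as TTTCCCGC or TTTGGCGC on either strand, was found in 34.4% of the 64 promoters of 47 matched genes of this list, against 2.27% of all promoters. RPA3, a subunit of the single-strand binding protein RPA, was among the lower genes and read 39.2, 34.8, 36.3 and 33.2 CPM in the control libraries, 33, 33.9, 29.5 and 27.3 CPM after siGOLM1-1 and 12.7, 13.7, 12.6 and 12.4 CPM after siGOLM1-2, a change of -1.48 (SE 0.09) against control and -1.27 against siGOLM1-1. RPA2, another subunit of that complex, was 0.45 against control, higher in all 4 siGOLM1-2 libraries than in any other. RRM2, which makes deoxynucleotides, was -1.47 and -0.83. MCM7 of the helicase was -0.83 and -0.20, the latter not called (adjusted p = 0.0612), and CHAF1B of chromatin assembly -1.12 and 0.20.

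The list of homologous recombination and Fanconi genes had 24 of 31 lower against control and 0 higher, with 23 lower after siGOLM1-1. Against control replicates 3 and 4 alone 13 were lower. The genes lower than in both other groups were BARD1, FANCC, MND1, RMI1 and FANCL (16.1%, beside 13.6% of all genes). For repair genes, the number lower than both was 3 with library totals alone.

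Target genes of p53, the factor that halts damaged cells, were higher with both siRNAs. Of 30 genes, 21 were higher and 1 lower against control after siGOLM1-2 (70% and 3.33%, beside 21.8% and 23.2% of all genes), and 19 were higher after siGOLM1-1. The exception, CCNG1, which encodes cyclin G, read 148.7, 154.6, 168.4 and 152.5 CPM in the control libraries, 207.1, 205.7, 234.1 and 182.7 CPM after siGOLM1-1 and 45.9, 52.8, 48.3 and 55.1 CPM after siGOLM1-2. It fell in all 4 siGOLM1-2 libraries below every other library, at -1.63 (SE 0.09), while siGOLM1-1 differed from control by 0.41. ZMAT3, an RNA-binding target, was 1.16 against control and 1.47 against siGOLM1-1. SESN2, a stress sensor of the amino acid pathway, was 1.11 after siGOLM1-2 and 1.25 after siGOLM1-1, and the antiproliferative gene BTG2 1.22 and 2.11, higher after siGOLM1-1 than after siGOLM1-2.

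Glycolysis turns glucose into pyruvate, and low oxygen raises its enzymes through the factor HIF. Of 32 genes of this list, 18 were lower and 3 (CA12, HK2 and EGLN3) higher against control, with a median of -0.31. The shares were 56.2% and 9.38%, beside 23.2% and 21.8% of all genes. Lower than both others were 12 (37.5%, beside 13.6%). For this list, the number higher against control was 5 with DESeq2, with DESeq2's size factors, with a filter at 1 CPM in 4 libraries and with library totals alone, and the number lower against control was 10 with controls 1 and 2 only, and the number lower than both was 7 with controls 1 and 2 only. PFKFB3, whose product makes the activator of phosphofructokinase, read 535.9, 556.7, 628.9 and 655.6 CPM in the control libraries, 568.5, 522.6, 503.4 and 579.4 CPM after siGOLM1-1 and 284.9, 284.4, 294.9 and 267.7 CPM after siGOLM1-2. The siGOLM1-2 libraries were the lowest without overlap, at -1.07 (SE 0.08) against control and -0.94 against siGOLM1-1. Its relative PFKFB4 was -1.18, the histone demethylase gene KDM3A -0.63 and the glycolytic mutase gene PGAM1 -0.70.

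NRF2 switches on detoxifying and redox genes. Its 33 targets split: 6 were higher and 13 lower against control (18.2% and 39.4%, beside 21.8% and 23.2% of all genes). After siGOLM1-1, by contrast, 24 were higher against control, with a median of 0.73. Of the list, 27 of 33 were lower with siGOLM1-2 than with siGOLM1-1, and 12 were lower than both other groups (36.4%, beside 13.6% of all genes). Beside HMOX1, IDH1, which makes NADPH, was -0.66 against control and -0.91 against siGOLM1-1. AKR1B1, an aldose reductase, and GPX2, an epithelial glutathione peroxidase, were higher than both, at 1.08 and 1.05 against control.

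Amino acid response genes, which the factor ATF4 controls, were lower in 17 of 33 and higher in 4 (SESN2, CHAC1, NUPR1 and SLC7A11). These were 51.5% and 12.1%, beside 23.2% and 21.8% of all genes. Lower than both others were 11 (33.3%, beside 13.6%). For the amino acid list, the number higher against control was 7 with library totals alone and 2 with no filter beyond 1 count and without siGOLM1-2 replicate 4, and the number lower against control was 11 with library totals alone, and the number lower than both was 6 with library totals alone. MARS, the methionyl-tRNA synthetase gene, read 192.4, 199.0, 234.0 and 226.8 CPM in the control libraries, 211.4, 226.2, 222.8 and 220.7 CPM after siGOLM1-1 and 137.1, 135.1, 140.6 and 142.3 CPM after siGOLM1-2, a change of -0.62 (SE 0.07). VLDLR, a lipoprotein receptor, fell with siGOLM1-2 (-0.85) and rose with siGOLM1-1 (1.16). PHGDH, the first enzyme of serine synthesis, fell by a like amount with both, -1.45 and -1.47.

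Cholesterol synthesis genes were lower in 15 of 26 (57.7%, beside 23.2% of all genes) and higher in 1 (PMVK). Lower than both other groups were 9 (34.6%, beside 13.6%). After siGOLM1-1 16 were lower. For cholesterol genes, the number lower than both was 5 with library totals alone. DHCR7, the enzyme of the last step, read 196.3, 211.2, 228.3 and 220.0 CPM in the control libraries, 119.1, 127.1, 125.2 and 134.2 CPM after siGOLM1-1 and 93.8, 97.5, 99.6 and 110.6 CPM after siGOLM1-2. Its change against control was -1.09. Of 26 fatty acid genes, 10 were lower and 5 (CPT1A, DGAT2, PLIN4, PLIN3 and CD36) higher against control. These were 38.5% and 19.2%, beside 23.2% and 21.8% of all genes, so the higher share was near that of all genes. For fatty acid genes, the number higher against control was 3 with a filter at 1 CPM in 4 libraries and with controls 3 and 4 only. FADS2, a fatty acid desaturase, read 969.5, 1012, 998.3 and 967.5 CPM in the control libraries, 904.4, 975.0, 885.6 and 945.3 CPM after siGOLM1-1 and 538.7, 551.1, 557.6 and 518.6 CPM after siGOLM1-2, and was -0.87 (SE 0.06) against control and -0.78 against siGOLM1-1, while the desaturase gene SCD and the synthase gene FASN were -1.08 and -1.07 against control.

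GOLM1 resides in the Golgi, where cargo receptors, coats and processing enzymes meet. In the list of Golgi structure and processing, 11 of 31 genes were higher and 8 lower against control (35.5% and 25.8%, beside 21.8% and 23.2% of all genes). Against both others 6 were higher and 5 lower (TGOLN2, LMAN1, ACBD3, GCC2 and TMF1), or 19.4% and 16.1% beside 12.6% and 13.6%. For Golgi genes, the number lower against control was 5 with library totals alone and without siGOLM1-2 replicate 4, and the number lower than both was 3 with DESeq2's size factors, with library totals alone, without siGOLM1-2 replicate 1, without siGOLM1-2 replicate 3 and without siGOLM1-2 replicate 4. TGOLN2, the cargo protein TGN46 of the trans-Golgi network, read 383.0, 399.2, 319.8 and 318.5 CPM in the control libraries, 327.8, 262.8, 305.4 and 253.9 CPM after siGOLM1-1 and 102.5, 102.8, 112.5 and 83.6 CPM after siGOLM1-2. All siGOLM1-2 libraries fell below all others, at -1.82 (SE 0.12, adjusted p = 1.01e-07) against control and -1.52 against siGOLM1-1. LMAN1, a cargo receptor between the endoplasmic reticulum and the Golgi, was -0.96. PCSK6, a proprotein convertase, read 51.7, 49.3, 59.8 and 62.4 CPM in the control libraries, 24.6, 22.1, 24.7 and 20.3 CPM after siGOLM1-1 and 122.1, 117.7, 125.8 and 118.9 CPM after siGOLM1-2. It rose with siGOLM1-2 (1.12) and fell with siGOLM1-1 (-1.28).

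Vesicle coat and transport genes showed 6 of 42 higher and 12 lower against control (14.3% and 28.6%, beside 21.8% and 23.2% of all genes). For coat genes, the number higher against control was 11 in a fit of the 8 libraries compared and with library totals alone, and the number lower against control was 7 with controls 1 and 2 only. TMED10, a cargo receptor of coated vesicles, read 249.4, 264.1, 262.5 and 245.4 CPM in the control libraries, 359.6, 398.6, 415.9 and 342.9 CPM after siGOLM1-1 and 128.5, 137.4, 136.6 and 128.3 CPM after siGOLM1-2. It fell with siGOLM1-2 and rose with siGOLM1-1, at -0.94 (SE 0.07) and 0.57 against control, and the coat gene COPG2 followed the same order at -0.90 and 0.50. GALNT5 and GALNT6, which start mucin-type O-glycans, moved apart, at 1.78 and -1.52 against control. GALNT5 read 18.4, 15.8, 15.1 and 15.8 CPM in the control libraries, 8.89, 12.6, 14.6 and 12.6 CPM after siGOLM1-1 and 52.3, 52.8, 53.4 and 65.1 CPM after siGOLM1-2, and GALNT6 read 13.2, 13.3, 15.6 and 14.3 CPM in the control libraries, 14.6, 18.7, 18.3 and 16.2 CPM after siGOLM1-1 and 5, 4.72, 4.91 and 5.05 CPM after siGOLM1-2. Both were separated from the other groups without overlap.

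In the list of endoplasmic reticulum folding and the unfolded protein response, 5 of 27 genes were lower than both other groups (ERO1L, EIF2AK3, HSP90B1, CALR and HSPA5) and 1 (EDEM1) higher, and 21 were not called against control. The lower and higher shares were 18.5% and 3.7%, beside 13.6% and 12.6% of all genes. For folding genes, the number higher against control was 8 with library totals alone and 4 without siGOLM1-1 replicate 1, and the number higher than both was 4 with library totals alone. ERO1L, which oxidises the enzyme that forms disulfide bonds, read 107.6, 111.0, 103.5 and 101.5 CPM in the control libraries, 121.3, 128.8, 151.5 and 113.7 CPM after siGOLM1-1 and 29.9, 31.2, 31.5 and 33.7 CPM after siGOLM1-2. Its change of -1.75 (SE 0.09) against control and -2.03 against siGOLM1-1 was without overlap. EDEM1, which directs misfolded glycoproteins to degradation, was 0.74.

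Glucocorticoid-responsive genes were tied to the control pairs. FKBP5, a chaperone partner of the glucocorticoid receptor, read 22.8, 22.6, 221.2 and 224.8 CPM in the control libraries, 17.7, 17, 19.1 and 14.9 CPM after siGOLM1-1 and 11.4, 13.2, 12.9 and 11.8 CPM after siGOLM1-2. PER1, a clock gene with a glucocorticoid response element, read 10.4, 11.8, 105.2 and 111.0 CPM in the control libraries, 16.2, 19.2, 21.9 and 23.3 CPM after siGOLM1-1 and 8.72, 6.79, 7.18 and 7.4 CPM after siGOLM1-2. SCNN1A, the alpha chain of the epithelial sodium channel, read 12.2, 13.8, 203.3 and 215.3 CPM in the control libraries, 10.8, 14.2, 16.6 and 17 CPM after siGOLM1-1 and 10.7, 8.7, 11.9 and 8.41 CPM after siGOLM1-2. In all 3 genes control replicates 3 and 4 were high and the other 10 libraries low. Against all controls the changes were -3.32, -2.99 and -3.49, against replicates 3 and 4 -4.16, -3.83 and -4.38, and against replicates 1 and 2 -0.88 (adjusted p = 8.52e-05), -0.56 (0.0111) and -0.39 (0.12, not called). Over the list, 11 of 26 were lower against all controls, 6 against replicates 1 and 2 and 16 against replicates 3 and 4, with medians of -0.50, 0.16 and -0.89. SCNN1A was -2.81 with a replicate block. For the higher members of the list, 6 against all controls, the number higher against control was 3 with no filter beyond 1 count and with controls 3 and 4 only.

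**Figure D4:**
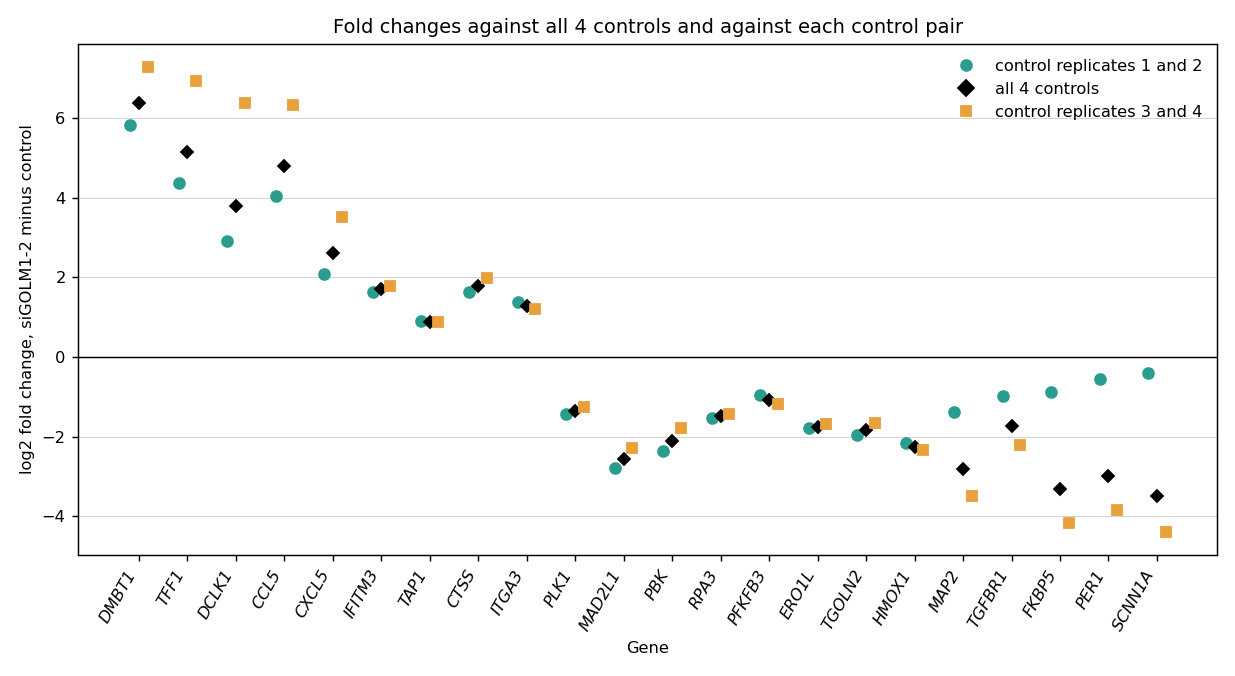
Log2 fold change of siGOLM1-2 for 22 named genes against all 4 controls (black), control replicates 1 and 2 (green) and control replicates 3 and 4 (orange). Values lie close together for genes such as IFITM3 (1.64 and 1.77). They lie far apart for several others, among them TFF1 (4.36 and 6.92), DCLK1 (2.91 and 6.38), MAP2 (-1.39 and -3.49), FKBP5 (-0.88 and -4.16) and SCNN1A (-0.39 and -4.38).

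CRISPLD2, a secreted glucocorticoid target, rose in this list with both siRNAs. It read 2.26, 1.97, 1.52 and 1.47 CPM in the control libraries, 9.15, 22.7, 31.1 and 20.8 CPM after siGOLM1-1 and 8.03, 7.11, 7.24 and 23.8 CPM after siGOLM1-2. The change of 2.67 was 2.04 without siGOLM1-2 replicate 4. Clock genes were called in 4 of 20 (NPAS2, RORA, ARNTL2 and PER2) on the higher and 4 (CLOCK, PER3, TEF and PER1) on the lower side against control, 20% and 20% beside 21.8% and 23.2% of all genes. CLOCK, the activator of the cycle, read 29.9, 26, 23 and 22.3 CPM in the control libraries, 35.4, 23.5, 28.3 and 21.6 CPM after siGOLM1-1 and 13.1, 13.1, 13.8 and 9.78 CPM after siGOLM1-2, and was lower in every siGOLM1-2 library than in any other (-1.02, SE 0.16).

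Lysosome and autophagy genes were higher in 19 of 34 and lower in 1 (ATG12) after siGOLM1-2, or 55.9% and 2.94%. After siGOLM1-1 19 were higher. ATG12 lost its call against control replicates 1 and 2 alone (-0.19, adjusted p = 0.142) and without siGOLM1-2 replicate 1 (-0.22, 0.0513). Glycosyltransferases were higher in 17 of 34 and lower in 4 (GALNT6, MGAT5, C1GALT1 and MGAT3), or 50% and 11.8%. After siGOLM1-1 22 were higher. Histone genes were higher in 9 of 16 and lower in 4 (H2AFZ, HIST2H2AC, H2AFX and H1F0), or 56.2% and 25%. Apoptosis regulators were higher in 11 and lower in 6 of 30, or 36.7% and 20%. The shares of all genes were 21.8% and 23.2%. YAP and TEAD targets were higher in 5 of 25 (AMOTL1, NT5E, YAP1, FJX1 and TEAD1) and lower in 8, or 20% and 32% beside the same shares. In this list 6 were lower than both other groups (24%, beside 13.6% of all genes), while siGOLM1-1 had 10 higher and 2 lower. Lung lineage genes were higher in 5 of 20 (ABCA3, KLF5, GATA6, LAMP3 and SOX9) and lower in 6, or 25% and 30% beside 21.8% and 23.2% of all genes. Genes of the RNAi and microRNA machinery were higher in 2 of 13 (TNRC6C and TNRC6B) and lower in 3 (XPO5, DROSHA and TNRC6A), or 15.4% and 23.1% beside 21.8% and 23.2% of all genes. For histones, the number lower against control was 2 with library totals alone. For YAP targets, the number higher against control was 3 with no filter beyond 1 count and without control replicate 3, and the number lower against control was 5 with no filter beyond 1 count. For RNAi genes, the number lower against control was 1 with controls 1 and 2 only and with controls 3 and 4 only. Mesenchymal genes were higher in 7 and lower in 9 of 31, or 22.6% and 29% beside 21.8% and 23.2% of all genes. In this list 7 were lower than both other groups (22.6%, beside 13.6% of all genes), while siGOLM1-1 had 14 higher and 3 lower. For mesenchymal genes, the number lower against control was 5 without control replicate 3, without control replicate 4 and with controls 1 and 2 only. SERPINE2, a protease inhibitor of that list, was 2.39 after siGOLM1-2 and 2.18 after siGOLM1-1, so it rose with both.

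Some genes that mark other cell types rose at low level. Of 15 tested such markers, 8 were higher and 1 (TUBB3) lower against control (53.3% and 6.67%, beside 21.8% and 23.2% of all genes). The summed level of the list was 62.3 to 74.6 CPM in control, 58.9 to 68.7 CPM after siGOLM1-1 and 90.5 to 92.4 CPM after siGOLM1-2. ITGAM, an integrin chain of myeloid cells, read 1.48, 1.83, 1.93 and 2.28 CPM in the control libraries, 2.79, 3.03, 3.59 and 4.17 CPM after siGOLM1-1 and 5.61, 5.62, 5.62 and 7.34 CPM after siGOLM1-2, a change of 1.69. COL3A1, a fibrillar collagen of fibroblasts, was 1.81 against all controls, 1.43 (adjusted p = 0.058) against replicates 1 and 2 and 2.34 against replicates 3 and 4. PDGFRA was 1.85 against control and CD14 0.74, and CD14 was not called against siGOLM1-1 (-0.10, adjusted p = 0.516). LUM, a proteoglycan of fibroblast matrix, was 1.06 against all controls and 2.75 against siGOLM1-1, at 0.508 to 1.88 CPM in control, 0.304 to 0.441 CPM after siGOLM1-1 and 2.43 to 2.86 CPM after siGOLM1-2. With control replicates 1 and 2 alone its log2 fold change was 0.50, and with control replicates 3 and 4 alone 1.98. Of the same classes, PTPRC, CD3E, CD68, DCN and VWF were at or below 0.142 CPM in all libraries. The part of these markers in the other results was not tested.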

How the data were processed

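The sources describe 3 groups of 4 biological replicates of A549 cells (control siRNA, siGOLM1-1, siGOLM1-2; 50 nM, 72 h), with mRNA libraries from a stranded kit. The authors deposited 1 table of raw read counts per gene, whose whole-number values sum to between 41617042 and 71344718 per library. The submitters' processing notes name bcl2fastq 2.20, STAR 2.7.3, the build hg19 and DESeq2 1.24.0; the counter, annotation release and strand setting are not given in the sources used here, so overlapping and antisense genes may share reads.

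Of 57773 genes, 24653 had no count. Genes passing edgeR's filterByExpr (17532) were scaled by TMM and fitted over all 12 libraries with the robust quasi-likelihood model of edgeR 4.0.16 in R 4.3.3. Adjusted p-values are Benjamini-Hochberg values called at 0.05, and SE is the fold change divided by the root of the F statistic. CPM use TMM-scaled totals. The model was run on simulated counts with a common spread for all genes and independent replicates. These held no control pairs and no library apart, so the run cannot speak to those features. It called 98 of 100 genes changed by 1 on the log2 scale, 44 of 100 changed by 0.5 and 9 of 13571 unchanged. The gene lists, their members and the comparison were chosen with earlier results of these data known.

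Genes named are GOLM1, the 15 ranked highest in each direction, the 5 members per list with the smallest p against control, and 11 genes that earlier results of these data had named. Genes outside this rule, singled out or named as the members of a small count, were chosen after their values were seen. Ranked genes differed from both other groups, did not overlap with either, reached a mean of 5 CPM in 1 group, kept their direction against each control pair, and were ordered by the smaller of the fold changes. Of 1285 different genes in the 41 lists, 1279 matched the table. Members under the count filter were not tested, and a few genes are not reported here. Promoters were matched to RefSeq by symbol, and the table is not complete. Alternatives were 21: other scalings, filters and tests, 8 libraries alone, a replicate block, each control pair alone and each replicate left out. Where libraries were left out or the filter changed, the number of tested members of a list could differ.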

Additional observations from a re-analysis of the deposited data

Results flagged for a closer look

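In 46 of 441 groups of 4 libraries of the named genes, 1 library lay further from the nearest of the others than Dixon's 95% limit for 4 values allows. Chance gives this in about 1 in 20 groups. Of these, 32 were siGOLM1-2 replicate 4, the library that stands apart in the correlations above.

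Replicate 4 was the highest of its group, with the range of the other 3 libraries given after it, for C4BPB (40.1 CPM against 15.5 to 18), CDH3 (12.5 CPM against 8.81 to 9.12), IL6 (17.4 CPM against 2.43 to 3.71), S100A9 (7.12 CPM against 5.36 to 5.63), KRT15 (19.5 CPM against 6.91 to 8.63), CPA4 (89.1 CPM against 25 to 28.3), STMN3 (36.6 CPM against 15.9 to 17.5), TNFRSF9 (10.6 CPM against 3.19 to 3.74) and CD55 (240.6 CPM against 172.6 to 181.2). The same held for IFI16 (38.1 CPM against 21.5 to 23.3), IFITM2 (147.5 CPM against 126.0 to 129.5), CCL26 (16.1 CPM against 9.7 to 10.1), EBI3 (20 CPM against 11.5 to 11.9), CXCL5 (518.0 CPM against 340.5 to 352.5), IRAK2 (94.8 CPM against 53.7 to 57.3), GALNT5 (65.1 CPM against 52.3 to 53.4), LAMA4 (10.9 CPM against 6.35 to 6.73) and CLDN1 (120.7 CPM against 66 to 71). It also held for BTG2 (58.7 CPM against 42.9 to 44.4), CRISPLD2 (23.8 CPM against 7.11 to 8.03), ITGAM (7.34 CPM against 5.61 to 5.62), SERPINE2 (490.8 CPM against 346.1 to 368.3), APOL2 (30.4 CPM against 21.3 to 22.5), CALR (715.5 CPM against 597.4 to 616.9) and GBP1 (3.34 CPM against 1.7 to 1.76). Replicate 4 was the lowest of its group for KIAA1191 (24.3 CPM against 26.1 to 26.2), C1S (222.4 CPM against 245.0 to 248.9), COPG2 (8.41 CPM against 10.1 to 10.3), MMP7 (210.5 CPM against 253.5 to 261.0), ATP1B1 (691.5 CPM against 767.7 to 776.9), CLOCK (9.78 CPM against 13.1 to 13.8) and COL3A1 (2.98 CPM against 7.09 to 7.58). Among these, leaving the library out moved the fold change against control by over 1.5 times for IL6 (from 5.08 to 4.02), CPA4 (from 3.14 to 2.47), TNFRSF9 (from 2.99 to 2.37) and CRISPLD2 (from 2.67 to 2.04), and no gene named here lost its call.

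The other values picked in this way were GOLM1 in siGOLM1-1 replicate 4 (37.5 CPM against 38.7 to 38.9), TMEM189 in siGOLM1-1 replicate 1 (43 CPM against 51.2 to 52.5), IFI16 in siGOLM1-1 replicate 1 (12.5 CPM against 17.1 to 17.8), KDM3A in siGOLM1-1 replicate 1 (82.3 CPM against 74.2 to 75.6), AKR1B1 in siGOLM1-1 replicate 1 (2808 CPM against 4068 to 4309), COL3A1 in siGOLM1-1 replicate 1 (1.49 CPM against 0.32 to 0.423), RP11-145M9.4 in control replicate 1 (5.26 CPM against 5.52 to 5.55), VLDLR in control replicate 1 (90.2 CPM against 88.6 to 88.9), NLRC5 in siGOLM1-2 replicate 3 (20.3 CPM against 19.6 to 19.7), NFKB1 in control replicate 4 (35.3 CPM against 36.5 to 36.8), FASN in control replicate 4 (873.4 CPM against 690.7 to 709.0), AQP3 in siGOLM1-1 replicate 3 (9.28 CPM against 6.4 to 6.65), CD14 in siGOLM1-2 replicate 2 (10.6 CPM against 12.1 to 12.4) and OAS2 in siGOLM1-1 replicate 2 (0.169 CPM against 0.0996 to 0.106).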

How the results depend on the processing

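The counts of genes called against control (in all and by direction), against siGOLM1-1 (in all) and differing from both groups (in all and by direction) stayed within 1.5 times their reported values under all 21 alternatives; other counts over all genes were not recomputed. Against control, leaving out 1 library gave 6904 to 8329 genes and the other alternatives 6567 to 8236. Against siGOLM1-1 the ranges were 8630 to 9614 and 8382 to 10016, and for genes differing from both groups 3979 to 4591 and 4013 to 4773. Of the 4591 genes that differed from both, 3603 kept their direction and call with control replicates 1 and 2 alone, 3754 with replicates 3 and 4 alone, 3873 with library totals, 4506 with DESeq2 and 3939 without siGOLM1-2 replicate 4. With a replicate block, 4643 genes differed from both. Same-numbered libraries of different groups correlated between -0.20 and 0.35 in their deviations, over 0.1 in 3 of 12 pairs, so the numbers were not taken to pair the samples. Of 3066 values of 146 named genes under alternatives, 3051 kept their side of the threshold, 15 lost their call and 0 reversed; those lost to a library or control pair are given with the gene. GOLM1 ranged from -3.01 to -2.87. Genes near 0 reads in a group, such as DMBT1 after siGOLM1-1, have folds limited by counting.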
